A study of Mus musculus with 2 samples.

Results

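Introns of the longest protein-coding genes hold 6303 of the 78165 DNase I hypersensitive sites (DHSs) that were found in both libraries of the left cerebral cortex, which is 8.06%. A DHS is a short stretch of chromatin that DNase I cuts far more often than its surroundings. The 6303 members were chosen by peak calls and position. The 2 libraries each had to have a peak in the merged region, so values of members are those of sites called in both. Its midpoint had to lie in an intron of an autosomal protein-coding gene over 300 kb long, outside every annotated exon and over 1 kb from every annotated transcription start site. In the GENCODE annotation of mm10, 541 of 20807 autosomal protein-coding genes (2.60%) are that long. The tissue came from 2 female B6CASTF1/J mice aged 14 days, with 1 DNase-seq library each (replicate 1 and replicate 2). The labels give separate biological replicate and animal numbers under a single shared donor record, so the spread between them is that of 2 libraries. B6CASTF1/J is the first-generation cross of C57BL/6J with CAST/EiJ, so each locus carries 1 chromosome of either strain, and the deposited values do not separate them. The tissue is a mixture of neurons, glia and vessel cells, and a DHS open in a few cells cannot be told apart from one weakly open in many. There is 1 group, so no test between conditions exists, and all comparisons below set the members beside other DHSs of the same 2 libraries.

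Long introns are where many distal regulatory elements of neuronal genes lie. Enhancers in them bind transcription factors, are depleted of nucleosomes while bound and are therefore cut by DNase I, whereas the protein on the DNA shields a few bases, which appear as a footprint inside the accessible stretch. CTCF, a zinc-finger protein that anchors chromatin loops, gives a particularly clear footprint, and basic helix-loop-helix factors of the NEUROD family, which act in maturing cortical neurons, bind the E-box CAGATG. Many of the longest mammalian genes encode synaptic adhesion molecules, receptors, ion channels and scaffolds of neurons.

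Shared DHSs lay within 1 kb of a start site at 7 of 8 neuronal marker genes and 5 of 6 glial ones, against 3 of 8 genes of liver, heart, kidney and pancreas. The share over all genes is not given here, and among the 541 long genes it was 91.3%, so these counts say little about cell types. Among the last 8, Cela1 reached 2.88 in replicate 1 and 3.09 in replicate 2, while Syt1, a neuronal marker, reached 3.57 and 3.03. The libraries differed in depth of calling: 90059 peaks were deposited for replicate 1 and 175597 for replicate 2 in the larger of the 2 peak lists of each. Read depth is not recorded in these files. The peak signal is the authors' own value on an unstated scale, and in replicate 1 it moved in steps of 0.00771 and in replicate 2 in steps of 0.00498.

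The following members are examples in sequence, taken at extremes and so not typical of the members. Gm20388 is a wide GENCODE gene model that RefSeq does not give as over 300 kb. They were taken by rule: the strongest, the one with the most footprints, and the farthest from a start site with a footprint of both libraries. Added to these were the strongest with a CTCF or RFX match that overlaps a footprint of each library. The E-box site is the strongest with such a CAGATG match and no CTCF match, since the strongest with CAGATG is the Camta1 site of the CTCF match. Sites of over 50% repeat and sites of which over 50% recurs elsewhere in the genome were passed over. The second of these limits and the RFX, the E-box and the farthest site shown here were added after values had been seen. Bases come from the RefSeq reference assembly GRCm38.p6 (mm10), plus strand, 5′ to 3′, which is C57BL/6J sequence and not that of the CAST/EiJ chromosome. Capitals mark bases inside footprints of both libraries in the first Gm20388 site and the Maml3 and Ptprd sites. In the other 3 they mark the named motif, which overlaps a footprint of each library.
Gm20388 intron 1, chr8:121585441-121585700: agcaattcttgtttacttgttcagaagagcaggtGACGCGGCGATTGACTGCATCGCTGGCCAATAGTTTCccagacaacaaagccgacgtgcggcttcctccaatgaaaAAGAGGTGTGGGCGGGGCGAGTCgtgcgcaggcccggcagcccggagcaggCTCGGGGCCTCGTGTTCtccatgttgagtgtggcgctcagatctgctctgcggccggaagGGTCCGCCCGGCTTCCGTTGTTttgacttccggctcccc
Camta1 intron 9, CTCF match, chr4:151141621-151141820: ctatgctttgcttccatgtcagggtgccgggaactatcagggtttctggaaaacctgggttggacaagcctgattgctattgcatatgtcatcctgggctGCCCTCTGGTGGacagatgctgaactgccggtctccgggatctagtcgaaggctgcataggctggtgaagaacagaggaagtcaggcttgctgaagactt
Camta1 intron 9, RFX matches, chr4:151140721-151140920: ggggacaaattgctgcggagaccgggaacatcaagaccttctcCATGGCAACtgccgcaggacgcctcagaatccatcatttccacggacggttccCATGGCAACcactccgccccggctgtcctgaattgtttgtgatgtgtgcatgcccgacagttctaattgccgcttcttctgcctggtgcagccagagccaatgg
Gm20388 intron 1, CAGATG E-box, chr8:121717981-121718200: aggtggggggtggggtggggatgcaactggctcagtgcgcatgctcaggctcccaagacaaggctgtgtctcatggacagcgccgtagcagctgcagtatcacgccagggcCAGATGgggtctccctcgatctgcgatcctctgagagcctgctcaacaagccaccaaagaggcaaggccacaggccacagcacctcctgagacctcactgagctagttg
Maml3 intron 1, chr3:52102621-52102920: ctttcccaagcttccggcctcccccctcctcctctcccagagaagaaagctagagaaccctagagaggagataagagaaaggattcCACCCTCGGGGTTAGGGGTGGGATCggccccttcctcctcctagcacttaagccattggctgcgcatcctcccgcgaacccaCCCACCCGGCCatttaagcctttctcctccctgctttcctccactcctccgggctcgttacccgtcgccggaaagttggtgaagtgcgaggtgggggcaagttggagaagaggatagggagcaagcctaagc
Ptprd intron 3, chr4:77558921-77559100: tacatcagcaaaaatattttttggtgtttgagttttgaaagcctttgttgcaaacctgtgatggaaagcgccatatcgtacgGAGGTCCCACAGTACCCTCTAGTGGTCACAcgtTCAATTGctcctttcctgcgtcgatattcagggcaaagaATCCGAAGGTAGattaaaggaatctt

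The first Gm20388 site was among the strongest members, with a signal of 7.92 in replicate 1 and 7.33 in replicate 2, and 99 of its 260 bases lay in 4 footprints of both libraries. It lay 3.81 kb from the nearest start site at 64.5% GC, against member medians of 27.0 kb and 48.5%. In the Camta1 site the CAGATG E-box begins 1 base after the CTCF match, and that site reached 9.41 in replicate 1 and 5.72 in replicate 2. The RFX site of Camta1 carries 2 matches, both in the reverse orientation, so that they read CATGGCAAC. It lies under 1 kb away and had signals of 3.32 and 4.04. The E-box site in Gm20388 had signals of 4.19 and 4.05. The Maml3 region, 1580 bases wide, of which the 300 bases shown hold 2 footprints of both libraries, held 23 footprints in replicate 1, 20 in replicate 2 and 12 of both, the most of any member, at modest signals of 1.29 and 1.19. The Ptprd site lies 601 kb from the nearest start site and had 1.36 in replicate 1 and 0.747 in replicate 2, with 3 footprints of both.

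Members were spread more thinly than the DHSs of shorter genes: there were 21.6 per Mb of searched intron, against 29.6 per Mb in introns of protein-coding genes up to 300 kb (15800 DHSs) and 19.8 per Mb in intergenic DNA (23715 DHSs). Searched length, 292 Mb for the long genes, 534 Mb for shorter ones and 1200 Mb between genes, leaves out exons, start-site windows and unsequenced bases. In the peaks of single libraries the density in long genes was 0.746 times that in shorter genes in replicate 1 and 0.838 times in replicate 2. The segments that the authors list at a false discovery rate (FDR) of up to 0.05 covered 0.517% of the long introns, 0.725% of shorter genes' introns and 0.515% of intergenic DNA in replicate 1. In replicate 2 they covered 1.59% of the long introns, 1.92% of shorter genes' introns and 1.31% of intergenic DNA. Long introns thus lay below those of shorter genes in both libraries. They lay level with intergenic DNA in replicate 1 and above it in replicate 2.

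Base composition moved with this difference. Of the searched bases of long genes, 23.6% lay in 20-kb tiles of under 38% GC and 9.43% in tiles of over 46%, while in shorter genes 7.63% lay in the poorest tiles and 28.7% in the richest. In tiles under 38% GC there were 8.08 members per Mb, against 7.76 DHSs per Mb in introns of shorter genes and 5.27 between genes. In tiles of 42 to 44% GC the values were 27.6 per Mb for members, 24.6 for shorter genes and 24.7 between genes. In tiles over 46% GC they were 52.2 per Mb for members, 50.9 for shorter genes and 56.4 between genes. In each of the 6 GC classes the members were thus slightly denser than the DHSs of shorter genes. Weighted to the GC of the long introns, shorter genes had 19.99 DHSs per Mb, so that the members stood at 1.08 times their density instead of 0.729 times. The ratio at like GC was 1.10 in the peaks of replicate 1 and 1.13 in those of replicate 2, and 0.987 in the stricter peak lists. With both GC and distance from a start site matched it was 1.03. This weighting was added after the data were seen, and whether GC sets the density was not tested.

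Distance from a start site alone did not level the difference. The median member lay 27.0 kb from the nearest start site, against 8.44 kb for DHSs in shorter genes and 17.0 kb for intergenic ones. From 1 to 5 kb the members reached 32.2 per Mb, close to the 32.9 per Mb of shorter genes and above the 28.1 per Mb between genes. From 10 to 25 kb they had 23.0 per Mb, against 28.5 in shorter genes and 23.1 between genes. Beyond 100 kb, where 694 members (11.0%) lay, there were 14.97 per Mb, against 21.9 in shorter genes and 9.35 between genes. The decline with distance was thus shallower inside long genes than between genes. The 5 members farthest from any start site were all in Ptprd, a receptor-type tyrosine phosphatase of synapse formation, up to 625 kb away.

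**Figure D1:**
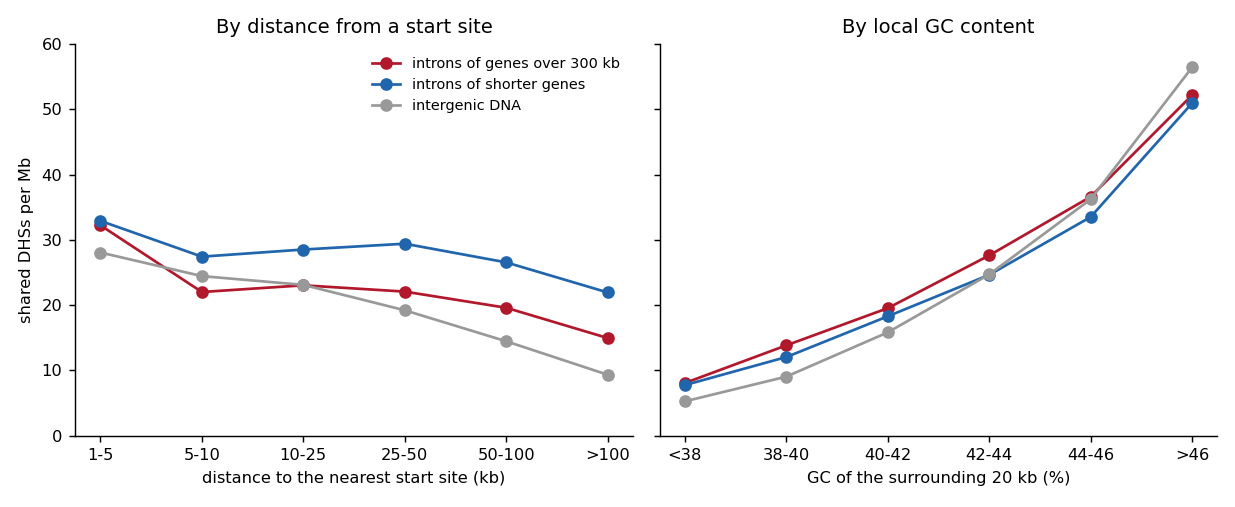
Shared DHSs per Mb of searched DNA (y axis, from 0) by distance to the nearest start site in kb (left) and by the GC content of the surrounding 20 kb in percent (right), for introns of genes over 300 kb, introns of shorter genes and intergenic DNA. By distance the members fall to 14.97 per Mb beyond 100 kb, against 21.9 in shorter genes and 9.35 between genes, while by GC the 3 lines lie close together and rise from under 10 to over 50 per Mb.

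Along the genes the members were fairly even. With each gene cut into 10 equal stretches from its 5′ end, the density was 22.5 per Mb in the first, lowest at 19.7 in the fourth and highest at 25.8 in the last. The first intron held 23.2% of members (95% Wilson interval 22.2 to 24.2) and 21.8% of the searched intron length, against 29.2% of DHSs and 27.8% of length in shorter genes, so in both classes the first intron was only slightly denser than later ones. Another member lay within 1 kb of 11.9% of members, against 11.2% for shorter genes and 14.3% between genes. The densest 50 kb lay in Ulk4, which encodes a pseudokinase, with 14 members in chr9:121215791-121265790. The widest stretch without a member inside a gene that has any was 745 kb in Cdh12, a neuronal cadherin (chr15:20660397-21405400). It was followed by 677 kb in Nkain2, which interacts with the sodium pump, 669 kb in Lrp1b, an LDL-receptor family member, and 653 kb in Galnt13, a glycosyltransferase of neurons, where it took up 95.7% of the gene.

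Taken over all GC classes and distances, members were weaker than other DHSs in both libraries. In replicate 1 their median signal was 0.586, against 0.709 for DHSs in shorter genes and 0.640 between genes. In replicate 2 it was 0.687, against 0.811 and 0.717. On the log2 scale the median lay below that of shorter genes by a difference of -0.28 in replicate 1 and -0.24 in replicate 2 (mean -0.26). All shared DHSs, also those at start sites and in exons, were ranked by mean log2 signal and cut into 4 equal groups. The lowest group took 33.3% of members, the next 31.6%, the third 25.3% and the highest 9.82%. The same split is not given for shorter genes or intergenic DNA, so it does not set members apart from other DHSs away from start sites. At like GC a gap to shorter genes remained: in tiles over 46% GC the medians were 0.717 and 0.826 for members, against 0.825 and 0.931 in shorter genes. In tiles of 42 to 44% GC they were 0.586 and 0.697 for members and 0.601 and 0.702 in shorter genes. Beside intergenic DHSs the order changed with GC. Under 38% GC members were the stronger, with 0.424 and 0.510 against 0.362 and 0.413, while over 46% GC intergenic DHSs had 0.879 and 0.941. Beyond 100 kb from a start site members had 0.501 and 0.587, against 0.424 and 0.488 between genes. From 1 to 5 kb they had 0.647 and 0.747, against 0.817 and 0.846.

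The 10 strongest members by mean signal lay in Gphn, Gm20388, Camta1, Nol4, Gm37388, Rasgef1b, Nfia, Myt1l, Trpm3 and Zbtb20. The strongest was in intron 2 of Gphn, the gene of the inhibitory postsynaptic scaffold gephyrin (chr12:78350861-78351100), with 11.5 in replicate 1 and 6.36 in replicate 2. Of its 31-base stretches 63.8% also occur elsewhere in the reference, which holds for none of the stretches of the other 9. The site in intron 1 of Nol4, which encodes a nucleolar protein, had 6.77 and 8.31. The site in intron 4 of Rasgef1b, an exchange factor for small GTPases (chr5:99248561-99248760), had 7.48 and 3.83. The site in intron 2 of Nfia, a nuclear factor I transcription factor of glial and neuronal differentiation (chr4:97868941-97869140), had 5.40 and 4.69. In Myt1l, a zinc-finger transcription factor of neurons, the site in intron 18 (chr12:29872461-29872720) had 3.71 and 5.21. In Trpm3, a cation channel, the site in intron 1 (chr19:22304401-22304620) had 5.84 and 3.04. In Zbtb20, a zinc-finger repressor, the site in intron 11 (chr16:43574121-43574300) had 4.81 and 3.98. The signal was higher in replicate 1 at 7 of these 10 sites and in replicate 2 at 3, so their order depends on the library.

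The libraries ranked members alike over the whole range but not in detail. Over the 6303 members, Pearson's r between replicate 1 and replicate 2 on the log2 scale was 0.78, given as a description, since members share genes and neighbouring chromatin. The log2 ratio of replicate 1 to replicate 2 had a median of -0.09 and a standard deviation of 0.54. Its median was -0.07 in shorter genes, 0.01 between genes and 0.05 over all shared DHSs. Past 2-fold in either direction were 368 members (5.84%), against 5.00% of all shared DHSs (3912 of 78165). Replicate 1 was the higher one in 101 of them and replicate 2 in 267. This lean was not particular to members. Without a CTCF match, 79 members were past 2-fold toward replicate 1 and 266 toward replicate 2. The counts were 152 and 602 in shorter genes, and 466 and 1060 between genes. Among members at or above the median of mean signal, those furthest toward replicate 1 were in Pik3c2g, a lipid kinase (1.14 and 0.343, 3.32 times), and in Kcnip1, which encodes a potassium channel-interacting protein (1.38 and 0.418, 3.30 times). Rabgap1l, Fhod3 and Lrmda followed with ratios of 2.81, 2.77 and 2.71. Furthest toward replicate 2 were members in Clstn2, a synaptic calsyntenin (0.401 and 1.72, replicate 2 higher 4.30 times), and in Sorcs1, a sorting receptor (0.262 and 1.12, 4.26 times). Stk3, Prkca and Rora followed with replicate 2 higher 3.85, 3.83 and 3.72 times.

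**Figure D2:**
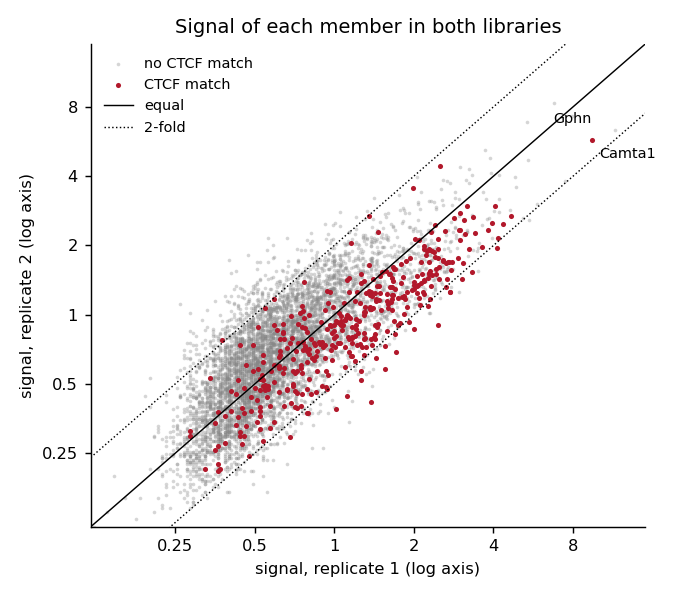
Peak signal of the members in replicate 1 (x axis) and replicate 2 (y axis), both log axes, with lines of equal signal and of a 2-fold difference, and members with a CTCF match in red. The axes leave out the weakest of the 6303 members, whose signals go down to 0.0925 in replicate 1 and 0.0996 in replicate 2. Members with a CTCF match lie mostly below the line of equal signal (321 of 393 were higher in replicate 1), and the 2 sites highest in replicate 1 are in Gphn and Camta1.

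How often a peak recurred in the other library followed its strength. Of the regions with a peak in replicate 1, 89.6% were shared in long genes (7031 regions), against 91.7% in shorter genes and 89.6% between genes. Of those with a peak in replicate 2, 34.8% were shared in long genes (18133 regions), against 39.95% in shorter genes and 40.1% between genes. With the regions of replicate 2 cut into 4 groups at the quartiles of all its peaks, the strongest group was shared in 89.5% for long genes, 87.1% for shorter genes and 91.6% between genes. The next lower group was shared in 50.3%, 43.6% and 55.5%, and the weakest in 8.65%, 8.21% and 11.2%, in the same order. In each of the 3 groups the long introns thus lay between the other classes. The stricter peak lists of both libraries also held 3025 of the 6303 members (48.0%). In replicate 1 alone the stricter list held 49.7% of members, against 55.9% of DHSs in shorter genes and 57.7% between genes. In replicate 2 alone it held 86.2% of members, against 87.4% and 87.1%. The lowest FDR of the authors' segments inside a member had a median of 0.000506 in replicate 1 and 8.85e-09 in replicate 2. Members had to be peaks of both libraries, so low values come with that choice. The same value was not computed for other DHSs.

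Footprints were a little fewer in members over all GC classes, but not within each of them. Replicate 1 had 1.78 per member, against 1.99 per DHS in shorter genes and 1.95 between genes, and replicate 2 had 2.84, against 2.99 and 2.88. In replicate 2, members held more footprints than DHSs of shorter genes in 5 of the 6 GC classes, for example 2.59 against 2.50 in tiles under 38% GC and 3.02 against 2.95 at 44 to 46%. They held fewer in tiles over 46%, with 2.97 against 3.17. In replicate 1 members held more at 42 to 44% GC, with 1.83 against 1.80, and fewer in the other 5 classes. The deposited footprints all carry the same value, 0.01, whose meaning is not stated, so they could not be ranked. A footprint was present in 80.8% of members in replicate 1 and in 94.9% in replicate 2, while 2451 members (38.9%) held none that overlapped between the libraries. There were 2007 members with 1 footprint of both, 1171 with 2, 486 with 3, 143 with 4 and 45 with 5 or more. After the Maml3 region, the members with many were among others in Myo3b, an unconventional myosin (7), Gm37388 (6) and Cdh4, the R-cadherin (6). Stronger members held more: with members cut into 3 equal groups by signal, the lowest group had 0.941 and 1.99 footprints per member in replicates 1 and 2, and the highest group 2.74 and 3.57. Members were weaker than DHSs of shorter genes, and footprints were not compared between the classes at like signal.

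Motif words were counted in the 200 bases around each midpoint, on both strands. They stand beside the same count in DHSs of shorter genes, in intergenic DHSs and in 11287 peak-free windows 2 kb beside the members. These windows had a median GC of 43%, against 48.5% in members, 50.5% in DHSs of shorter genes and 49% in intergenic ones. A CTCF consensus match was present in 393 members (6.24%, interval 5.66 to 6.86), against 9.43% in shorter genes, 9.72% between genes and 0.062% in the flanks. The E-box CAGATG was present in 27.4% of members (interval 26.3 to 28.5), against 24.4% in shorter genes, 24.8% between genes and 14.99% in the flanks. Over all members, CTCF matches were thus less frequent and this E-box slightly more frequent than in either other class, with intervals that do not meet. These intervals, like all others here, are Wilson intervals at 95% and cover counting error only.

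Both shares moved with distance and with strength. Within 1 to 5 kb of a start site 7.18% of members had a CTCF match (63 of 877), against 10.01% in shorter genes, and beyond 100 kb 4.18% (29 of 694), against 1 of 123 in shorter genes. From 50 to 100 kb the shares were 5.43% for members and 6.14% in shorter genes, with intervals that overlap. CAGATG went the other way: 24.5% of members within 1 to 5 kb held it and 29.5% beyond 100 kb, against 22.3% and 31.7% in shorter genes. From 50 to 100 kb the shares were 31.1% for members and 30.6% in shorter genes, with intervals that overlap. The gaps to intergenic DHSs also narrowed with distance. From 1 to 5 kb CTCF matches were in 7.18% of members and 12.4% of intergenic DHSs, and CAGATG in 24.5% and 21.1%. Beyond 100 kb CTCF matches were in 4.18% and 4.37%, and CAGATG in 29.5% and 30.6%, with intervals that overlap. In tiles over 46% GC the CTCF share was 8.50% for members and 10.6% in shorter genes, and in tiles of 38 to 40% GC 4.86% and 8.40%. Between genes it was 12.5% in tiles over 46% GC. Under 38% GC it was 5.34% between genes and 5.22% for members, with intervals that overlap. The E-box excess was not present in each GC class. At 38 to 40% GC CAGATG was in 26.9% of members, against 27.3% in shorter genes and 27.9% between genes, and at 44 to 46% in 25.9%, against 25.6% and 24.1%, with intervals that overlap. In tiles over 46% GC it was in 26.04% of members, against 23.5% and 21.7%. With members cut into 3 equal groups by signal, a CTCF match was in 2.19% of the lowest group, 4.38% of the middle one and 12.1% of the highest, while CAGATG was in 28.7%, 28.9% and 24.5%.

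Of 394 CTCF matches in members, 345 (87.6%) overlapped a footprint of replicate 1 by at least 1 base, and 370 (93.9%) one of replicate 2. A footprint of each library was overlapped by 334 (84.8%). Footprints covered 10.1% of the window bases in replicate 1 and 16.7% in replicate 2. That is a share of single bases, and a longer word overlaps a footprint more easily, so the shares are not directly comparable. CAGATG matches overlapped a footprint of each library in 12.7% of 2015 cases. Of the CTCF matches 203 ran along the host gene and 191 against it (51.5% along, interval 46.6 to 56.4). Members with a CTCF match were stronger, with a median of 1.14 against 0.570 for the other 5910 in replicate 1, and of 0.901 against 0.672 in replicate 2. Their log2 ratio of replicate 1 to replicate 2 had a median of 0.35, with 321 of 393 higher in replicate 1, whereas members without a match had a median of -0.12 and 41.2% higher in replicate 1. Shorter genes showed the same split, at 0.34 with a match and -0.12 without, and so did intergenic DHSs, at 0.43 and -0.04. The libraries thus differed in the signal of CTCF sites relative to other sites in all 3 classes, and the cause was not tested.

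Among the other words, the E-box CAGCTG was in 21.0% of members (20.6% in shorter genes, 19.6% between genes, 8.28% in the flanks). The AP-1 word TGANTCA, bound by FOS and JUN, was in 11.7% (10.01%, 10.6% and 6.27% in the same order). The RFX word GTTGCCATG was in 2.06% (1.85%, 1.87% and 0.177%), and 77 of its 141 matches overlapped a footprint of each library. The SP/KLF word GGGCGG was in 5.43% (7.91%, 7.69% and 1.90%). The MEF2 consensus was in 1.21% (1.15%, 1.06% and 0.354%) and the octamer ATGCAAAT in 1.75% (1.43%, 1.96% and 1.58%). The CRE word TGACGTCA, the EGR word GCGTGGGCG and the NFI consensus were rare, at 0.286%, 0.127% and 0.143% of members, against 0.519%, 0.234% and 0.184% in shorter genes. The SOX word ACAAAG was less common in members than beside them (15.01% and 17.4%), as was the ROR word TAGGTCA (1.05% and 1.86%). None of the words spelled out here contains another. A match describes the letters only and is no evidence of binding.

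**Figure D3:**
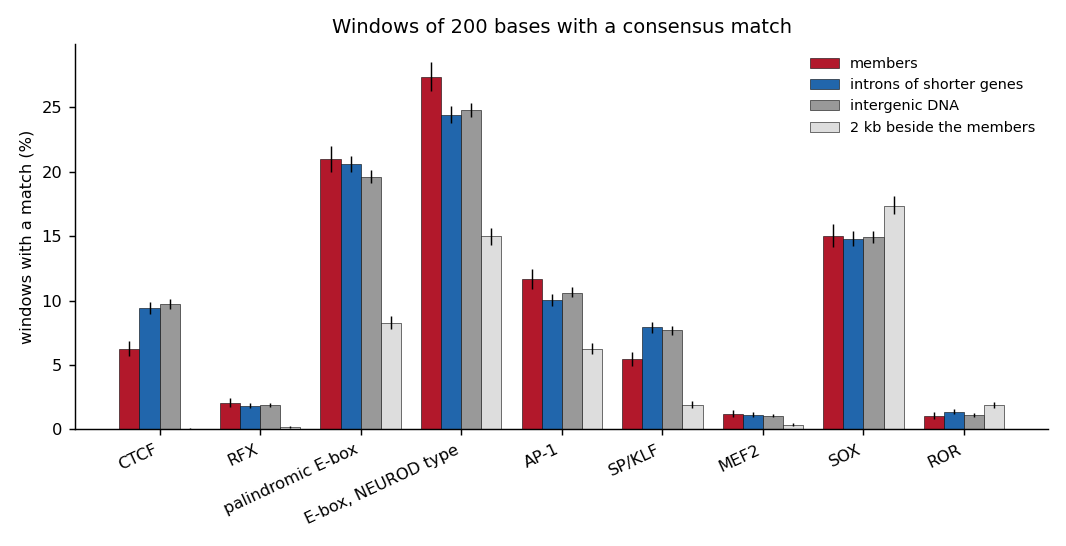
Share of 200-base windows (%, y axis from 0) with a consensus match for 9 of the 13 motifs, in members, DHSs in introns of shorter genes, intergenic DHSs and peak-free windows 2 kb beside the members, with 95% Wilson intervals as error bars. Members stand at 6.24% for CTCF, below both other DHS classes, and at 27.4% for the NEUROD E-box, above both.

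Nearly every long gene had a member: 532 of the 541 held at least 1. The median gene had 9 members and 20.01 per Mb of searched intron (interquartile range 11.9 to 32.1). The density of regions in replicate 1 and in replicate 2 ranked the 541 genes alike (Spearman coefficient 0.88). Density ran with the GC of the gene's introns (0.77) and only weakly against gene length (-0.18), and these coefficients are given as descriptions over genes that share libraries and composition. With the genes cut into 5 groups by intron GC, the lowest group (34.4 to 38.3%) had a median of 8.52 per Mb, and the highest (43.9 to 54.1%) 40.6 per Mb. Genes of 300 to 400 kb and of 400 to 600 kb had medians of 21.2 and 21.3 per Mb, those of 600 to 1000 kb had 14.6 and longer ones 14.98. The 47 genes without a shared DHS at their own start sites had a median of 16.8 per Mb, against 20.1 in the 494 that had one.

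By number, Gm20388 led with 204 members and Fgfr2, a fibroblast growth factor receptor, followed with 107. Both are wide gene models, of 4435 and 2961 kb, that RefSeq does not give as over 300 kb, as is Gm37240 with 47. In all 26 of the 541 genes and 458 members (7.27%) rest on such models, and 67 members lie in more than 1 long gene, those of Gse1 also in Gm20388. Also inside a shorter protein-coding gene lie 218 members (3.46%), which were counted as members only. Among genes that RefSeq also gives as long, the most members were in Camta1, a calmodulin-binding transcription activator, with 50 (56.6 per Mb; chr4:150917322-151861876). Next were Rbfox1, a neuronal splicing regulator, with 45 (29.8 per Mb) and Asic2, an acid-sensing ion channel, with 44 (41.3 per Mb). Csmd1, a membrane protein that regulates complement, had 43 (26.9 per Mb), and Nrxn3, a presynaptic neurexin, had 42 (26.7 per Mb). Dlg2, a postsynaptic scaffold, and Kalrn, an exchange factor of dendritic spines, each had 39, at 21.4 and 69.6 per Mb. Nav2, a neuron navigator, and Cdh13, the membrane-anchored T-cadherin, each had 38. Gse1 had 37, and Ptprn2, a phosphatase-like protein of secretory vesicles, had 33.

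By density, Gse1 was far ahead with 112 members per Mb (37 in chr8:120228456-120581390), at an intron GC of 54.1%, the highest of the 541 genes. Ulk4 had 87.3 per Mb, and Shank2, a scaffold of excitatory synapses, 78.2. Myt1l followed with 76.6 at an intron GC of 43.9%. Maml3, a co-activator of Notch signalling, had 72.5, Hivep3, a zinc-finger transcription factor, 71.2, and Kalrn 69.6. Gabbr2, a subunit of the metabotropic GABA receptor, had 69.3, Msra, a methionine sulfoxide reductase, 65.3, and Ldlrad4, a regulator of TGF-beta signalling, 63.7. Ulk4 differed from the other 9 in strength: its members had medians of 0.551 in replicate 1 and 0.443 in replicate 2, while those of the other 9 lay at 0.732 or more in replicate 1 and at 0.799 or more in replicate 2.

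The 9 genes without a member were Dnah7a and Dnah7b, axonemal dynein heavy chains, Gucy1a2, a guanylate cyclase subunit, Klhl1, a kelch-like protein, Mgat4c, a glycosyltransferase, Prr16, Skint5 and Skint6, which belong to a family acting in skin T cells, and Spock3, a proteoglycan. Mgat4c was the longest of them, with 688 kb of searched intron. It held 2 regions in replicate 1 and 12 in replicate 2, of which none coincided. Skint5 and Skint6 had 0 in replicate 1, with 2 and 1 in replicate 2, and had no shared DHS at their start sites, unlike the other 7. Spock3 had 0 in replicate 1 and 8 in replicate 2. The intron GC of the 9 genes ran from 35.9 to 39.7%, and each had a region of replicate 2 at least, so a count of 0 here speaks of both libraries together. Copies elsewhere in the genome were counted only for shared regions. Whether reads could be placed uniquely in the introns of these genes was not tested.

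**Figure D4:**
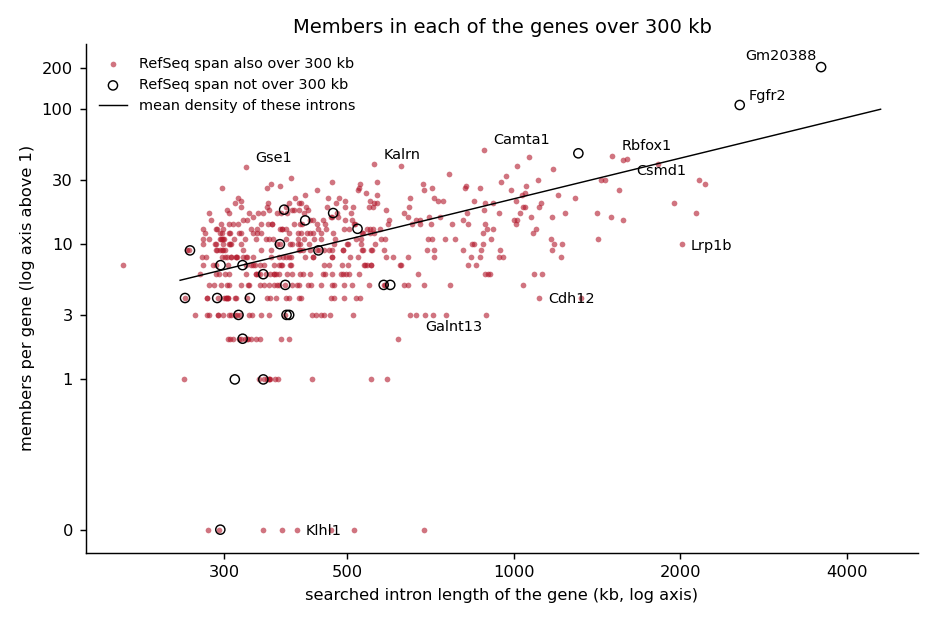
Members per gene (y axis, log scale above 1) against searched intron length in kb (log axis) for the 541 genes, with open circles for the 26 genes whose RefSeq span is not over 300 kb and a line at the mean density of 21.6 per Mb. Gm20388 (204 members) and Fgfr2 (107) are open circles at the right, Gse1 and Kalrn lie far above the line, and Lrp1b and Cdh12 far below it.

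Gene lists by function were set beside the median of 20.01 per Mb over all long genes. A gene can stand in more than 1 list, and 233 long genes stand in at least 1. Signalling enzymes and exchange factors were the densest, with a median of 27.4 per Mb and 22 of 30 gene models above that of all long genes. Arhgap26 stands among them as 2 overlapping GENCODE models, with 44.9 and 48.1 per Mb, so this gene counts 2 times above the median. Kalrn (69.6) and Prkce, a protein kinase C (61.6), were the highest, and Dock3, a Rac exchange factor (13.2), and Prkg1, a cGMP-dependent kinase (13.6), the lowest. Within their own group of intron GC, 21 of the 30 lay above the median. RNA-binding proteins had a median of 26.04 with 4 of 6 above. There Msi2, a Musashi protein, had 53.0 and Rbfox3, the neuronal NeuN antigen, 45.1, while Khdrbs2 had 11.1 and Celf2 14.2, both regulators of splicing. Ion channels had 24.2, with 14 of 25 above. Itpr2, a calcium release channel, had 55.5 and Cacna1d, an L-type calcium channel, 48.4, while the potassium channels Kcnd2 and Kcnt2 had 8.09 and 8.56.

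Synaptic and cytoskeletal scaffolds had a median of 23.6, with 15 of 23 above. Shank2 (78.2) and Ank3, an ankyrin of the axon initial segment (51.1), were the highest, and Sntg1, a syntrophin (3.37), and Gphn (6.94) the lowest, although Gphn holds the strongest member of all. Glutamate and GABA receptors had 20.8, with 9 of 17 above. Gabbr2 (69.3) and Gabrb1, a subunit of the GABA-gated channel (34.1), led, and the kainate receptor Grik2 (4.61) and the metabotropic receptor Grm8 (11.9) came last. Transcription and chromatin regulators had 20.7, with 16 of 28 above but 10 of 28 above the median of their own GC group. Myt1l (76.6) and Camta1 (56.6) were the highest, and Foxp2, a forkhead factor (5.86), and Mecom, a zinc-finger factor (9.10), the lowest. The medians of receptors and of transcription regulators lay so close to that of all long genes that they fell below it under other settings, such as the stricter peak lists (differences of -1.14 and -0.21 per Mb). The scaffolds fell below it when genes from 200 kb were included (-1.03 per Mb).

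The lists of adhesion molecules lay below the median of all long genes. Synaptic and neuronal adhesion genes had a median of 14.9 per Mb, with 10 of 36 above, at a median intron GC of 38.6%, and 17 of the 36 lay above the median of their own GC group. Dscaml1 (55.6) and Tenm4 (40.8), which guide cell recognition in development, were the highest, and the contactin Cntn6 (2.75) and Lrrtm4, an organizer of excitatory synapses (3.97), the lowest. Cadherins had 14.8, with 4 of 12 above: Cdh4 had 56.6 and Cdh13 37.5, against 3.59 in Cdh12 and 2.76 in the protocadherin Pcdh7, which held 1 member in 362 kb. Axon guidance genes had 17.5, with 7 of 18 above, but 12 of 18 lay above the median of their own GC group. Among genes over 500 kb their median exceeded that of all long genes, by 2.80 per Mb. Nav2 (60.7) and the ligand Slit3 (40.6) were the highest and the ephrin receptors Epha6 (8.52) and Epha3 (9.73) the lowest.

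The lists of particular cell types, other tissues and fragile sites also had medians below that of all long genes. Genes of excitatory cortical neurons had a median of 17.2 per Mb, with 6 of 17 above, led by Cdh13 (37.5) and Tshz2, a zinc-finger factor (28.3). The lowest of them were Cdh12 (3.59) and Foxp2 (5.86). Genes of astrocytes and the oligodendrocyte lineage had 15.1, with 4 of 13 above. Slc4a4, a bicarbonate transporter, had 35.5 and Ntrk2, the BDNF receptor, 34.5, whereas St18, a Myt-family factor, had 2.82 and Gpc5, a glypican, 7.74. Genes of GABAergic interneurons had 14.3, with 5 of 13 above. Kcnip1 had 34.9 and Ptprm, a receptor phosphatase, 29.4, against 4.82 in the neuregulin receptor Erbb4 and 5.33 in Sgcz, a sarcoglycan. Genes of other tissues had 14.9, with 4 of 17 above. Among them, Sgcz also stands in the interneuron list, and Gpc5 and Pcdh15 in that of astrocytes and oligodendrocytes. This list is thus not one of genes unused in brain, and its median rests in part on the same genes. Ldlrad4 (63.7) and Cdh23, a cadherin of hair cells (34.3), were the highest and Sgcz (5.33) and Thsd7b (6.67) the lowest. Common fragile site genes, which break under replication stress, had 15.3, with 6 of 14 above: Ptprn2 had 43.1, against 4.97 in Lrp1b and 3.03 in Naaladl2. Above the median of their own GC group lay 9 of 17 genes of excitatory neurons, 2 of 13 of astrocytes and oligodendrocytes, 3 of 13 of interneurons, 6 of 17 of other tissues and 5 of 14 fragile site genes. In bulk tissue a gene used by few cells and a gene with few accessible sites cannot be told apart.

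**Figure D5:**
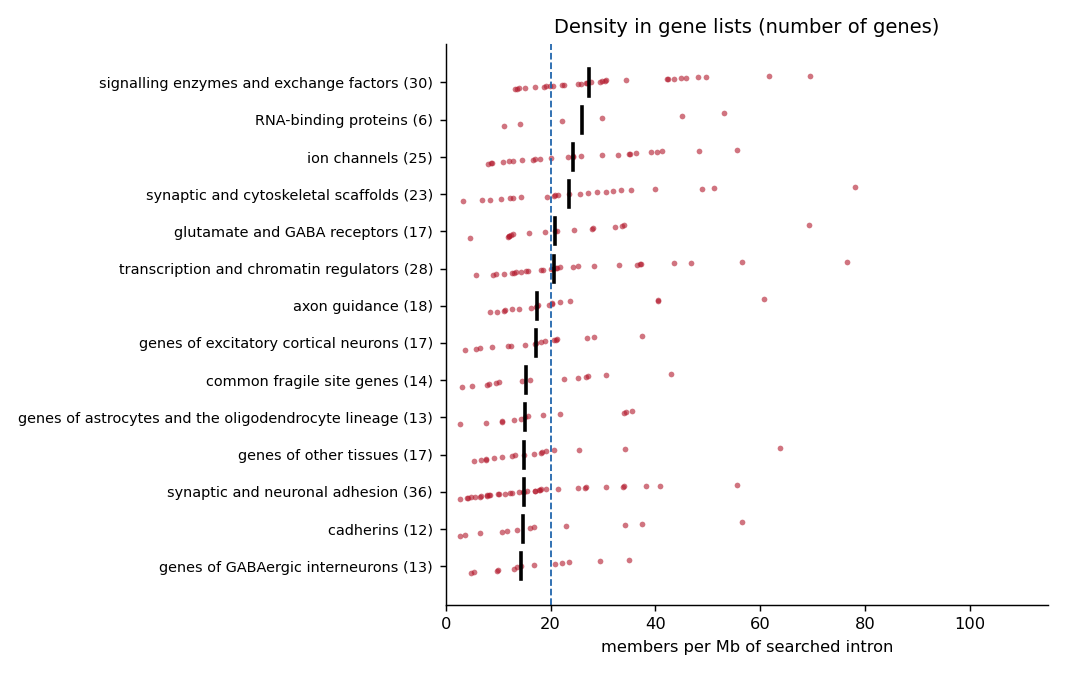
Members per Mb of searched intron (x axis, from 0) for each gene of the 14 lists (points), with the median of each list as a black bar and the median of all 541 long genes, 20.01 per Mb, as a dashed line. Signalling enzymes and exchange factors lie highest (median 27.4) and genes of GABAergic interneurons lowest (14.3), and every list spans a wide range.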

How the data were processed

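DNase-seq was run on 1 library from each of 2 mice. The authors deposited, per library, peaks with a signal of unstated scale, footprints whose p-value column holds 0.01 throughout, and segments of local cleavage with a q-value of up to 0.05. The assembly is mm10, per the labels. For the aligner, the peak caller and the footprint caller, no name is given in the sources used here, and read depth is unknown. The larger deposited peak list of each library was used. Overlapping peaks (at least 1 bp) were merged, and a region took the highest signal of each library. Genes came from GENCODE vM21 and sequence from RefSeq GRCm38.p6. The members and gene lists were chosen with earlier results of these data known. Named genes were the 15 with the most members, the 10 densest, per list the 2 highest and 2 lowest, and, of those with no member, the first 5 in the alphabet and the 5 longest. Some items that these rules selected are not reported here. Prr16, the genes of the widest gaps and densest stretch, and the Ptprd sites were named after their values were seen. Sequences were taken from chromosomes other than 18. Functions were checked on 200 simulated cases each. No test between groups exists with 1 group. Alternatives covered peak list, overlap, gene length, start-site distance, repeats and single libraries. Python 3.11.15, NumPy 2.4.6 and pandas 2.3.3 were used.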

Additional observations from a re-analysis of the deposited data

How the results depend on the processing

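No paired analysis was possible because there is only 1 group. Alternatives were run for 11 results over the planned settings and 2 chosen after seeing the data (genes that RefSeq also gives as over 300 kb, and leaving out multi-copy regions). The lower density, weaker signal and rarer CTCF matches of members beside shorter genes kept their direction under all settings run, as did the more frequent CAGATG (26.5 to 28.3%, against 23.7 to 25.5%). With the smaller peak lists there were 3026 members, at 0.647 times the density of shorter genes and 0.987 times at like GC, a log2 signal difference of -0.23, a footprint difference of -0.111, CTCF matches in 10.2% and 6.10% of genes with none. With equal numbers of peaks the values were 0.650 times, 1.03 times at like GC, -0.18 on the log2 scale, -0.0625 footprints (-0.127 in replicate 1 and 0.00209 in replicate 2, so the direction was not kept there), 7.24% with CTCF and 4.44% of genes with none. With an overlap of at least 50% of both peaks they were 1.02 times at like GC, 7.90% with CTCF and 3.51% of genes with none. For genes over 200 kb the densities were 0.797 times and 1.13 times at like GC, and 3 lists instead of 6 exceeded the median of all long genes. For genes over 500 kb there were 3451 members, 1.05 times at like GC, -0.28 on the log2 scale and 25.3% in the first intron. Over 5 kb from a start site the values were 1.04 times at like GC and 21.2% in the first intron, with genes long in RefSeq 21.3%, and without repeats 1.11 times at like GC. Leaving out 1 library, the peaks of the other gave 7031 to 18133 regions, 0.746 to 0.838 times the density, 1.10 to 1.13 times at like GC, -0.31 to -0.29 on the log2 scale, -0.238 to -0.233 footprints, 2.61 to 5.77% with CTCF and 0 to 1.11% of genes with none, and the share found in both could not be had. Among the lists, the difference from all long genes in members per Mb changed sign for glutamate and GABA receptors at -1.14 with the smaller lists, -0.200 with equal numbers, -1.57 with 50% overlap, -1.12 over 200 kb, -4.85 over 500 kb, -0.373 over 5 kb, -0.517 without repeats and, leaving out 1 library, -7.69 (without replicate 1) to 1.55. For transcription regulators it was -0.214, -0.801, -0.642, -1.73 and -1.19 under the first 5 of these, for scaffolds -1.03 over 200 kb and for axon guidance 2.80 over 500 kb. The causes were not tested. Depth is unknown, so a weak site seen in 1 library may be missed in the other. Copies were counted only for shared regions, so the share of peaks found in both was not run without multi-copy ones.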
